A study of Mus musculus with 8 samples.

Results

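The subject is a set of 10 liver genes that depend on the transcription factor STAT5 and on pulses of growth hormone, among them 4 major urinary protein (*Mup*) genes. The genes were taken by name from a list, *Mup1*, *Mup3*, *Mup20*, *Mup21*, *Cyp2d9*, *Hsd3b5*, *Selenbp2*, *Slco1a1*, *Elovl3* and *Cyp4a12a*, and all 10 were found among the 55416 gene identifiers of the deposited table. RNA sequencing was done on 8 mouse liver samples, 4 labelled Alb-cre+ (HKO, hepatocyte knockouts of *Smpd3*, written as knockouts 1 to 4) and 4 labelled Alb-cre- (FLOX, floxed controls 1 to 4). *Smpd3* encodes neutral sphingomyelinase 2, which cleaves sphingomyelin to ceramide and phosphocholine, and Cre under the albumin promoter acts in hepatocytes. Both groups were fed HFMCD for 9 weeks, given to induce a model of steatohepatitis, and neither a group on another diet nor a control that carries Cre without floxed *Smpd3* was part of the comparison. Cre itself and the loss of *Smpd3* therefore cannot be told apart. Strain, age, sex and hour of collection are not stated in the labels used here. Nor do these state whether the 4 samples of a genotype are from 4 different mice, so the p-values are measured against the spread among the samples, which may be technical in part.

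In male mice the pituitary releases growth hormone in pulses separated by quiet intervals, while in females the release is more continuous. Each pulse activates JAK2 at the growth hormone receptor of hepatocytes, and JAK2 phosphorylates STAT5b, which enters the nucleus and switches on male-biased genes. The same pulses keep female-biased genes low, partly through the repressor BCL6, and loss of pulses or of STAT5b is known to lower the first kind and raise the second in male liver. Major urinary proteins are lipocalins that the male liver secretes in large amounts and that carry pheromones in urine.

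The 80 bases before the annotated start of *Mup21* and *Mup3* are shown because these are the *Mup* members with a promoter window, and they are among the members described in full below. The sequences are from RefSeq windows on GRCm38.p6, read 5′ to 3′ on the minus strand at chr4:62150842-62150921 and chr4:62087318-62087397, and capitals mark their longest shared run, of 25 bases, which includes the TATA-like stretch.
Mup21: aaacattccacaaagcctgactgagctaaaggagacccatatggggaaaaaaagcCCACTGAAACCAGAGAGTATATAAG
Mup3: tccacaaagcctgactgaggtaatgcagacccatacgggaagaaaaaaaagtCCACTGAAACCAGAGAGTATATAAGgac
Of all 32851 promoter windows searched on both strands, 2 held this run (0.00609%), those of *Mup21* and *Mup3*. The run was taken from these 2 windows, so its presence in both is by construction. Of the 14 *Mup* genes with a window, these 2 held it.

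STAT5 binds the consensus TTCNNNGAA, which reads the same on both strands. Windows from 250 bases before to 50 bases after the start were given for 6 of the 10 members, *Mup3*, *Mup21*, *Cyp2d9*, *Hsd3b5*, *Selenbp2* and *Slco1a1*, and 0 of these 6 held the consensus, which 8.3% of all 32851 windows held. This says only that those letters are not in these windows. Among 10 genes of growth hormone receptor signalling with a window, *Cish* and *Socs3* held it, and *Bcl6* and *Igfals* held it as well. So did 4 of 17 female-biased genes with a window, *A1bg*, *Fmo2*, *Slc22a26* and *Sult3a1*, against 0 of 12 other *Mup* genes and 0 of 10 other male-biased genes. *Cish*, a feedback inhibitor of the receptor, is shown because its groups did not overlap (values below) and because it carries the motif 2 times, without overlap, right after the start, and *Igfals* and *Bcl6* are shown for comparison. *Igfals* and *Bcl6* each have another match at another position. Capitals mark the consensus, and the stretches lie at chr9:107296654-107296683 (plus strand), chr17:24878168-24878197 (plus strand) and chr16:23988946-23988975 (minus strand) of GRCm38.p6.
Cish: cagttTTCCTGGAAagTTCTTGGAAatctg
Igfals: aggtgTTCCTAGAAgaggccctgggggagg
Bcl6: attagTTCTCAGAAttccagaggccgagct

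The values are TPM, a level per transcript length scaled to each library's own total, which keeps no record of sequencing depth. The libraries summed to between 994563 and 995449 TPM, so that the precision from counting is unknown. *Smpd3* stood at 1.17, 3.03, 1.27 and 2.06 TPM in knockouts 1 to 4, against 8.69, 10.72, 12.54 and 6.38 TPM in floxed controls 1 to 4. It fell by 1.89 ± 0.24 (SE) on the log2(TPM + 1) scale, with an adjusted p of 0.0300 in limma, and the call held in 3 of the 8 fits leaving out 1 library each, those without knockout 2, floxed control 3 or floxed control 4. The hepatocyte gene *Alb* ranged from 39755 to 47735 TPM in the knockouts and from 42729 to 52162 TPM in the controls. Y-linked *Ddx3y* was at 6.84 TPM or more in all 8 libraries, and *Xist*, the RNA of the silenced X chromosome, was at 0.11 TPM or less. Floxed control 4 was the lowest control for 63.0% of the 12710 tested genes, and knockout 1 the lowest knockout for 56.6%.

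Of the members, 9 could be tested and 0 passed at an adjusted p of 0.05 in limma, against 0.102% of all 12710 tested genes, 0.0551% lower and 0.0472% higher in the knockouts. Testing needed 4 or more libraries with at least 1 TPM. Each log2 difference is the knockout mean less the control mean of log2(TPM + 1), and p-values were adjusted after Benjamini and Hochberg over every tested gene. The mean was lower in the knockouts for 8 of the 9 members and higher for *Elovl3*, with a median log2 difference of -0.39, against 0.05 for all tested genes, of which 35.4% were lower. Under an unadjusted p of 0.05 lay 4 members, where 8.02% of all tested genes lay, and 3 of these members were lower, *Mup1*, *Mup21* and *Cyp2d9*, where 2.45% of all tested genes were lower at that level. *Elovl3* was the only member higher at that level, where 5.57% of all tested genes were higher. *Cyp2d9* was the only one of the 10 members whose groups did not overlap, where 4.74% of all tested genes had such groups, 1.46% lower and 3.29% higher in the knockouts. The members were chosen with earlier results of these data known, so these counts are a description.

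Levels spanned a wide range within each library. In the controls the order of mean levels per length was *Mup20* (10301 TPM), *Mup3* (1266 TPM), *Cyp2d9* (353 TPM), *Selenbp2* (298 TPM), *Mup1* (248 TPM), *Mup21* (33.8 TPM), *Cyp4a12a* (26.1 TPM), *Slco1a1* (15.7 TPM), *Elovl3* (13.9 TPM) and *Hsd3b5* (0.655 TPM). *Mup20* ranked 10 and *Mup3* 95 among all genes of the table by mean control level. The control ranges of neighbours in this order overlapped from *Cyp2d9* to *Selenbp2*, from *Selenbp2* to *Mup1*, and through *Mup21*, *Cyp4a12a*, *Slco1a1* and *Elovl3*, so the pooled ranges do not set those neighbours apart. Compared within each library, *Selenbp2* was above *Mup1* in 4 of 4 knockouts and 4 of 4 controls, and *Cyp4a12a* above *Slco1a1* in 3 of 4 knockouts and 4 of 4 controls.

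**Figure D1:**
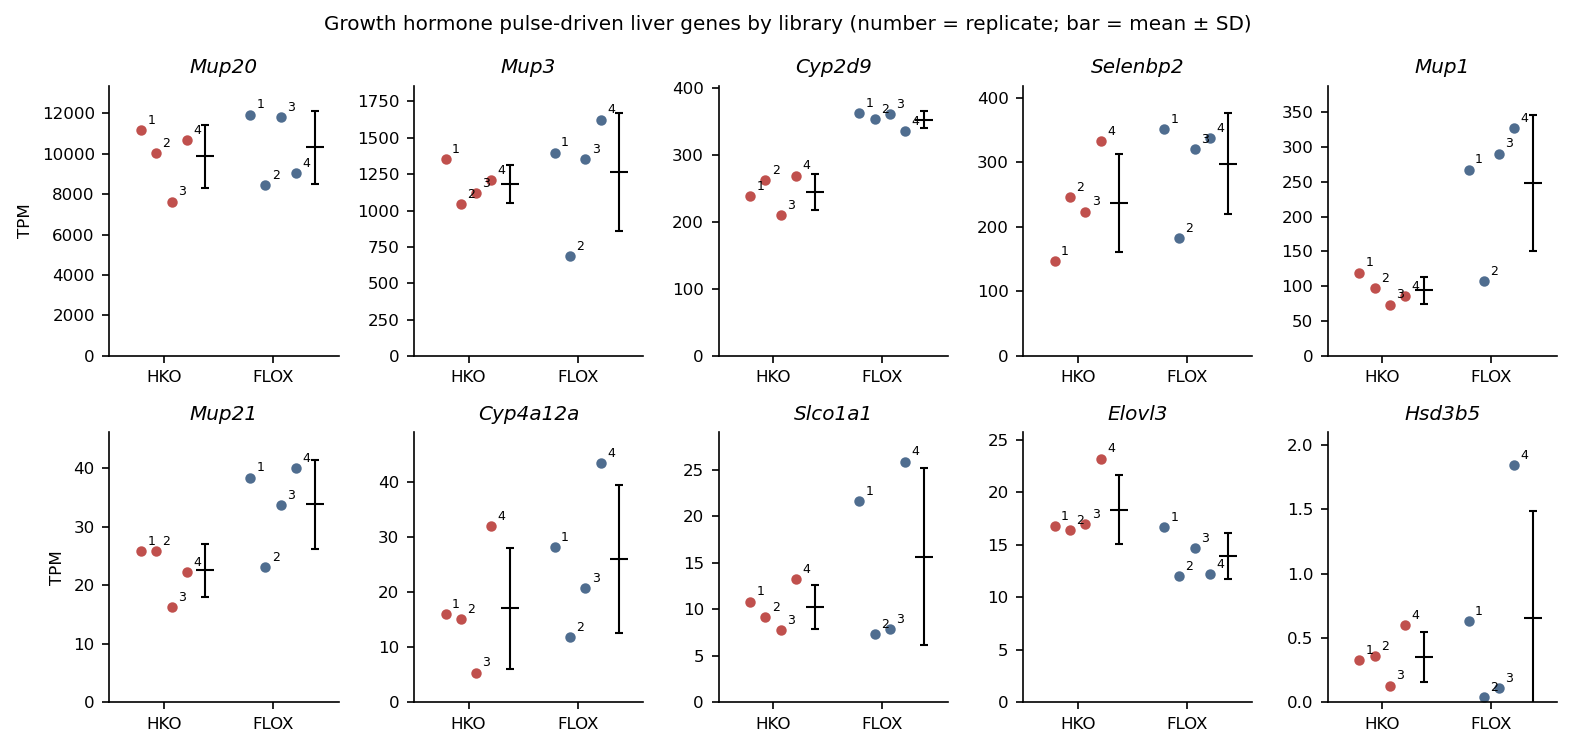
TPM of the 10 members in each library, in the order of their control level, with knockouts (HKO) left and floxed controls (FLOX) right; points are libraries numbered by replicate, and bars are mean ± SD (n = 4 per group, cut off at 0). The groups are apart for *Cyp2d9* only, and floxed control 2 lies at or near the bottom of the controls in most panels.

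*Cyp2d9* (ENSMUSG00000068086) encodes a male-biased steroid 16-alpha-hydroxylase. It stood at 238, 263, 211 and 269 TPM in knockouts 1 to 4, against 362, 354, 361 and 335 TPM in floxed controls 1 to 4. The highest knockout lay below the lowest control, and the controls were close to one another, with a coefficient of variation of 3.54%. The mean was 245 ± 26.7 TPM in the knockouts and 353 ± 12.5 TPM in the controls (SD, n = 4 each), and the log2 difference was -0.53 ± 0.09 (SE; 95% interval -0.72 to -0.34). The adjusted p of *Cyp2d9* in limma was 0.0730, and the 2-sided exact permutation p was 0.0286, which is the lowest value possible with 70 ways to divide the libraries. The adjusted p of *Cyp2d9* fell below 0.05 in 3 of 19 alternative settings in limma. These were rescaling without mitochondrially encoded and the 20 most abundant genes (0.0387), quantile normalization (0.0255) and robust variance estimation (0.0486). The adjusted p lay between 0.0864 and 0.190 when single libraries were left out. It was highest without a filter (0.23) and with the replicate number as a block (0.232).

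*Mup1* (ENSMUSG00000078683), a major urinary protein gene of the central cluster of near-identical copies, stood at 120, 97.7, 73.5 and 85.5 TPM in knockouts 1 to 4, against 268, 107, 291 and 327 TPM in floxed controls 1 to 4. Floxed control 2 lay within the range of the knockouts, and the other 3 controls lay above all 4 knockouts. The mean was 94.1 ± 19.7 TPM in the knockouts and 248 ± 97.2 TPM in the controls (SD, n = 4 each), with a log2 difference of -1.29 ± 0.31 (SE). The adjusted p of *Mup1* in limma was 0.206 (2-sided exact permutation p = 0.0571). Without floxed control 2 the log2 difference was -1.66 and the adjusted p 0.00803 in limma, the only 1 of the 8 fits leaving a library out in which *Mup1* passed, and its adjusted p ranged up to 0.415 in the others.

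*Mup21* (ENSMUSG00000066153), a member at the edge of the cluster, stood at 25.9, 25.9, 16.2 and 22.3 TPM in knockouts 1 to 4, against 38.4, 23.1, 33.7 and 40.0 TPM in floxed controls 1 to 4. Floxed control 2 again lay among the knockouts. The log2 difference was -0.56 ± 0.19 (SE), with an adjusted p of 0.443 in limma. The nearby *Mup3* (ENSMUSG00000066154) stood at 1351, 1046, 1117 and 1211 TPM in knockouts 1 to 4, against 1398, 687, 1353 and 1626 TPM in floxed controls 1 to 4. Floxed control 2 was the lowest of all 8 libraries for *Mup3*, and the log2 difference was -0.04 (95% interval -0.54 to 0.46, adjusted p = 0.993 in limma). Without that library it was -0.31 (adjusted p = 0.416), and it turned positive in 5 of the 19 alternative settings, at most 0.11.

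*Mup20* (ENSMUSG00000078672) encodes darcin, the male pheromone protein that attracts females. It stood at 11143, 10021, 7628 and 10665 TPM in knockouts 1 to 4, against 11921, 8428, 11812 and 9043 TPM in floxed controls 1 to 4. The groups overlapped over most of their range, with a log2 difference of -0.06 (95% interval -0.38 to 0.26, adjusted p = 0.974 in limma). The direction turned in 4 of 19 alternative settings, with values up to 0.06.

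The members with enzyme or transport roles outside the *Mup* cluster varied more among the controls than *Cyp2d9*. *Slco1a1* (ENSMUSG00000041698), an organic anion transporter of the hepatocyte membrane, stood at 10.8, 9.15, 7.78 and 13.2 TPM in knockouts 1 to 4, against 21.6, 7.31, 7.84 and 25.9 TPM in floxed controls 1 to 4. Floxed controls 2 and 3 lay at the bottom with knockout 3, and controls 1 and 4 lay above every knockout (log2 difference -0.39, 95% interval -1.21 to 0.42, adjusted p = 0.888 in limma). Leaving out floxed control 2 gave -0.66 and floxed control 3 gave -0.63, while leaving out control 1 gave -0.18 and control 4 gave -0.10. *Cyp4a12a* (ENSMUSG00000066071), a male-biased arachidonic acid hydroxylase, stood at 16.1, 15.2, 5.41 and 32.0 TPM in knockouts 1 to 4, against 28.2, 11.8, 20.8 and 43.5 TPM in floxed controls 1 to 4. Its groups overlapped widely (log2 difference -0.66, 95% interval -1.72 to 0.39, adjusted p = 0.823 in limma), and the difference ran from -1.02 without knockout 4 to -0.24 without knockout 3. *Selenbp2* (ENSMUSG00000068877), a selenium-binding protein gene, stood at 147, 245, 224 and 332 TPM in knockouts 1 to 4, against 351, 183, 321 and 337 TPM in floxed controls 1 to 4. Knockout 1 and floxed control 2 were its lowest libraries (log2 difference -0.34, 95% interval -0.91 to 0.23, adjusted p = 0.840 in limma), and the difference was -0.56 without that control and -0.13 without that knockout.

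*Elovl3* (ENSMUSG00000038754), an elongase of very long chain fatty acids whose liver level in mice is male-biased and varies over the day, was the member with a higher mean in the knockouts. It stood at 16.8, 16.4, 17.0 and 23.2 TPM in knockouts 1 to 4, against 16.7, 12.1, 14.7 and 12.2 TPM in floxed controls 1 to 4. Of the knockouts, 3 lay above every control, and knockout 2 lay just under floxed control 1. The log2 difference was 0.37 ± 0.15 (SE), with an adjusted p of 0.534 in limma, and it stayed between 0.26 and 0.46 when single libraries were left out. *Hsd3b5* (ENSMUSG00000038092), a steroid reductase gene that is strongly male-biased in mouse liver, was near the bottom of the measured range. It stood at 0.33, 0.36, 0.13 and 0.6 TPM in knockouts 1 to 4, against 0.63, 0.04, 0.11 and 1.84 TPM in floxed controls 1 to 4, so that 1 library reached 1 TPM and the gene was not tested. Without a filter its adjusted p in limma was 0.908.

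**Figure D2:**
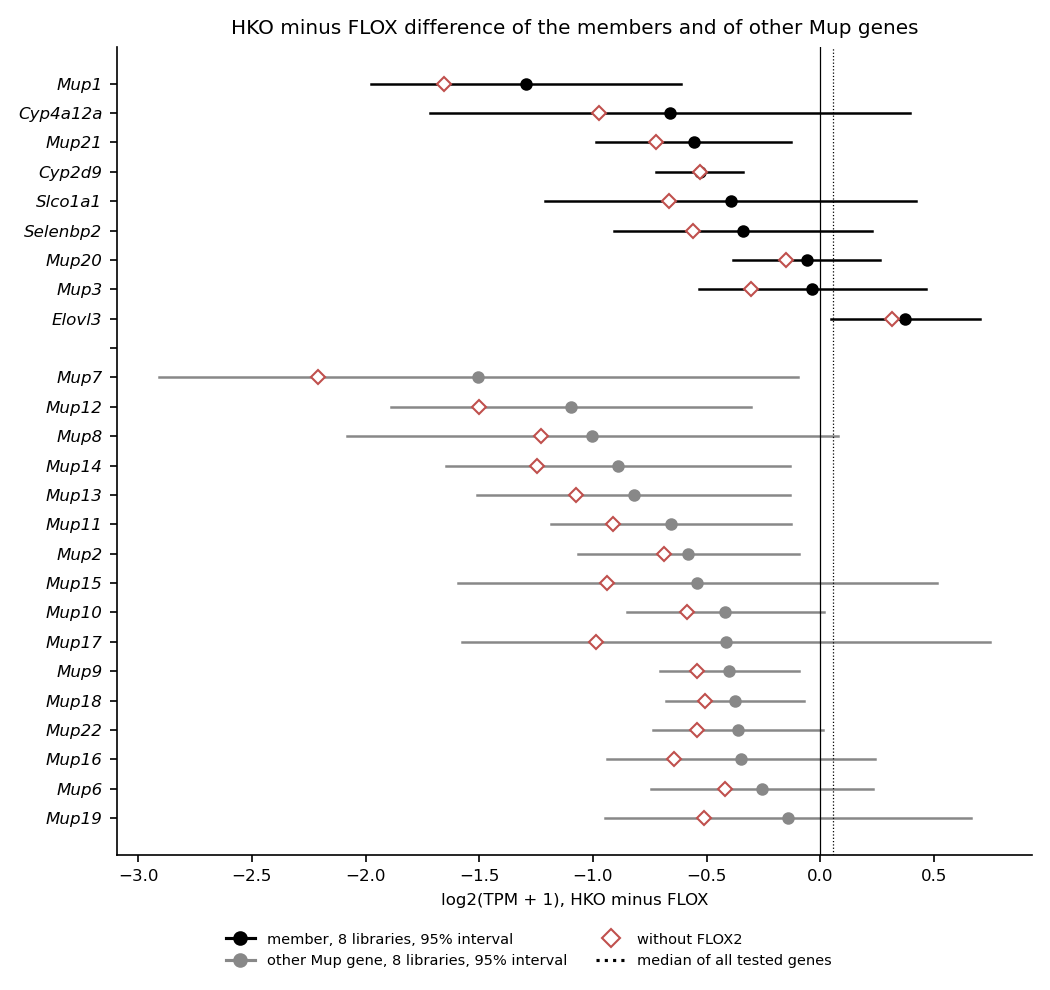
Difference between knockouts and floxed controls (HKO minus FLOX, log2(TPM + 1)) for the 9 tested members (black) and the 16 other tested *Mup* genes (grey); circles and lines are the estimate and 95% interval from 8 libraries, diamonds the estimate without floxed control 2, and the dotted line the median of all tested genes. *Mup1* has the lowest value of the members (-1.29), and the diamonds lie left of the circles for all genes plotted but *Cyp2d9*, where they lie together.

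Some libraries were low or high for most of the members. Floxed control 2 was the lowest control for 9 of the 10 members, while it was the lowest control for 13.6% of all tested genes. Its exception was *Cyp2d9*, for which it lay with the other controls. Floxed control 4 was the highest control for 6 of the 10 members, although it was the highest control for 7.34% of all tested genes. Among the knockouts, knockout 3 was the lowest for 7 of the 10 members, against 18.7% of all tested genes, and knockout 4 was the highest for 6, against 33.5% of all tested genes. The labels name no batch that separates these libraries.

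The members are also given without floxed control 2, which was singled out for its low values of these same genes. Leaving it out raises the control mean of 9 members by construction, so the counts without it are a description and support nothing. In that fit 1 of 9 members passed in limma, *Mup1*, against 0.0944% of all tested genes, and 5 had an unadjusted p under 0.05, against 7.82% of all tested genes. The groups did not overlap for 4 of the 10 members, *Mup1*, *Mup3*, *Mup21* and *Cyp2d9*, where 8.39% of all tested genes had such groups. The median log2 difference of the 9 members was then -0.56, against 0.08 for all tested genes. Over the 8 fits that each left out 1 library the members' median ranged from -0.56 to -0.25. *Cyp2d9* was at -0.53 with and without that library. Over all genes floxed control 2 was not the library that stood apart: its limma library weight was 1.09, against 0.351 for floxed control 4 and 0.491 for knockout 1. Without floxed control 4, 0 members passed, against 3 of all 12710 tested genes, and the groups did not overlap for 1. The median log2 difference of the members was then -0.27, against -0.0057 for all tested genes. Without knockout 1, 0 members passed, against 5 of all 12710 tested genes, and the groups did not overlap for 2. The share of all tested genes without overlap was not counted in these fits, so nothing is read from those counts.

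The other genes named *Mup* were described next, since they are close copies of the members. Reads that fit several copies are split by estimation, so how far each gene can be measured by itself was read from GENCODE M21 transcripts of GRCm38, which may not be the annotation of the deposited values. Of the distinct 75-base windows in the transcripts of a gene, the share found in no other gene was 42.2% for *Mup1*, 56.4% for *Mup20*, 89.7% for *Mup21* and 94.6% for *Mup3*. The copies with the least sequence of their own were *Mup15*, *Mup19* and *Mup22*, each at 0%. *Mup20* shared 43.6% of its windows with the pseudogene *Mup-ps19*, *Mup1* shared 41.0% with *Mup12*, *Cyp4a12a* shared 40.8% with *Cyp4a12b* and *Selenbp2* shared 27.6% with *Selenbp1*, so those levels are uncertain as values of single genes, while *Slco1a1* (98.9%) and *Elovl3* (100%) were nearly or wholly distinct.

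Of the 18 other *Mup* genes, 16 were tested and 0 passed. All 16 had a lower mean in the knockouts, where 35.4% of all tested genes were lower. Their median log2 difference was -0.48. At an unadjusted p under 0.05, 8 of the 16 were lower, against 2.45% of all tested genes. All 16 stayed lower under the 4 other scalings tried. They share reads and sequence and are not independent of one another. *Mup7* and *Mup12*, given next, had the lowest log2 differences of the 16, and 18.9% and 19.7% of their 75-base windows were found in no other gene. The most abundant of the 16, *Mup18* and *Mup22*, had log2 differences of -0.37 and -0.36, and *Mup19* had -0.14. *Mup7* stood at 244, 341, 91.1 and 283 TPM in knockouts 1 to 4, against 825, 141, 1200 and 1011 TPM in floxed controls 1 to 4 (log2 difference -1.50 ± 0.63 SE, adjusted p = 0.588 in limma). *Mup12*, the copy closest to *Mup1*, stood at 32.8, 29.1, 22.6 and 21.4 TPM in knockouts 1 to 4, against 59.6, 23.8, 71.5 and 102 TPM in floxed controls 1 to 4 (-1.10 ± 0.36 SE, adjusted p = 0.388). For *Mup7*, *Mup12* and *Mup1* alike, floxed control 2 lay within the range of the knockouts and the other controls above it. Floxed control 2 was the lowest control for 15 of the 16 other *Mup* genes with a mean of at least 1 TPM. Leaving it out therefore favours separation by construction, and without it 9 of the 16 had groups that did not overlap, against 8.39% of all tested genes, and *Mup12* had a log2 difference of -1.50 (adjusted p = 0.0370 in limma).

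Summed over all 22 genes named *Mup*, which depends less on how reads were split, the level was 30800, 26867, 22167 and 28725 TPM in knockouts 1 to 4, against 35880, 23759, 40156 and 36782 TPM in floxed controls 1 to 4. The knockouts and floxed control 2 lay below the other 3 controls. The mean sum was 27140 ± 3684 TPM in the knockouts and 34144 ± 7164 TPM in the controls (SD, n = 4 each), or 2.73% and 3.43% of all TPM. *Mup20* made up 34.4% to 37.3% of the sum in the knockouts and 24.6% to 35.5% in the controls. Without *Mup20* the mean sum was 17275 TPM in the knockouts and 23843 TPM in the controls.

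**Figure D3:**
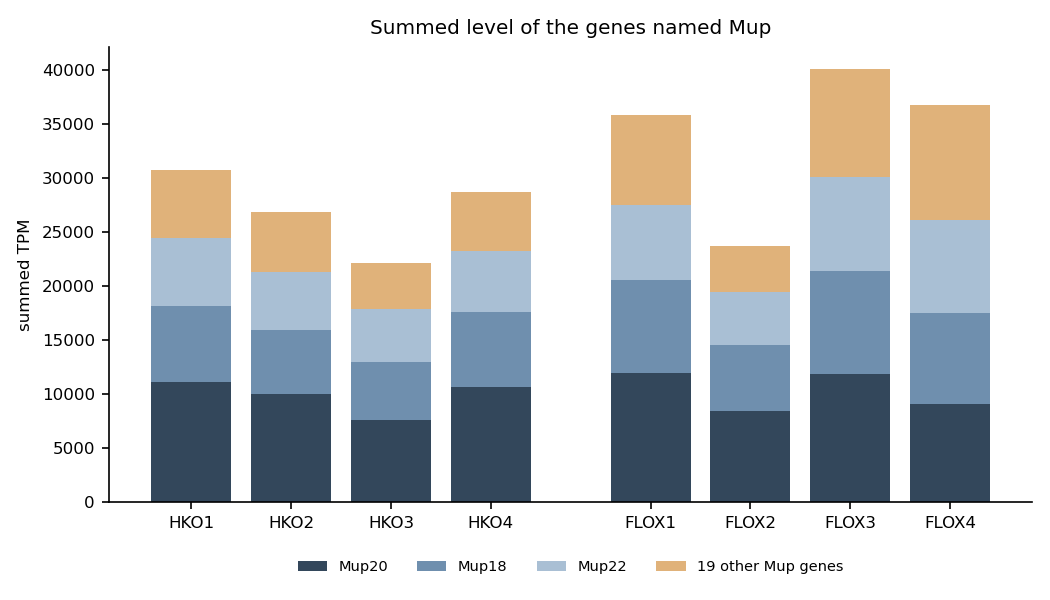
Summed TPM of the 22 genes named *Mup* in each library, knockouts (HKO) left and floxed controls (FLOX) right, stacked by *Mup20*, *Mup18*, *Mup22* and the rest. Floxed control 2, at 23759 TPM, falls within the span of the knockouts, and the other controls stand at 35880 TPM or more.

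Male-biased genes outside the list were then counted. Of 14 listed, 13 were tested and 0 passed. The mean in the knockouts was lower for 11 and higher for 2, where 35.4% of all tested genes were lower. The median log2 difference was -0.18. *Serpina1e*, a protease inhibitor gene with close copies, stood at 882, 643, 347 and 1317 TPM in knockouts 1 to 4, against 1712, 1238, 2138 and 3101 TPM in floxed controls 1 to 4 (-1.44 ± 0.38 SE, adjusted p = 0.246 in limma). *Egfr*, the epidermal growth factor receptor gene, stood at 27.9, 36.5, 30.5 and 53.5 TPM in knockouts 1 to 4, against 71.0, 46.7, 55.2 and 83.8 TPM in floxed controls 1 to 4 (-0.78 ± 0.22 SE, adjusted p = 0.283). For these genes the highest knockout, knockout 4, exceeded the lowest control, floxed control 2. *Ihh*, a hedgehog ligand gene, averaged 3.08 TPM in the knockouts and 5.55 TPM in the controls (-0.67 ± 0.21 SE, adjusted p = 0.362). *Nat8f5*, an N-acetyltransferase gene, went against the others, at 6.69 to 11.02 TPM in the knockouts and 5.29 to 6.63 TPM in the controls without overlap (0.51 ± 0.16 SE, adjusted p = 0.337).

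Female-biased genes, which pulses of growth hormone hold low in males, mostly had higher means in the knockouts. Of 24 listed, 15 were tested and 0 passed. The mean in the knockouts was higher for 13 and lower for 2, where 8211 of all 12710 tested genes were higher. The median log2 difference was 0.32, against 0.05 for all tested genes, and 11 to 13 were higher over the other scalings. At an unadjusted p under 0.05, 4 were higher, against 5.57% of all tested genes, and 1, *Tox*, was lower, against 2.45%. *Cyp2a4*, a steroid 15-alpha-hydroxylase gene, stood at 9.38, 9.66, 9.09 and 16.0 TPM in knockouts 1 to 4, against 7.33, 5.74, 6.39 and 4.31 TPM in floxed controls 1 to 4. Its groups did not overlap (0.78 ± 0.20 SE, adjusted p = 0.230 in limma, 2-sided exact permutation p = 0.0286). *Cyp2b9* stood at 29.6, 28.4, 64.1 and 27.4 TPM in knockouts 1 to 4, against 17.1, 27.5, 18.6 and 26.2 TPM in floxed controls 1 to 4 (0.65 ± 0.26 SE, adjusted p = 0.563). *Slc22a27*, an organic anion transporter gene, averaged 6.78 TPM in the knockouts and 3.58 TPM in the controls (0.79 ± 0.26 SE, adjusted p = 0.396). *Sult2a2*, a sulfotransferase gene, averaged 4.61 TPM in the knockouts and 2.22 TPM in the controls (1.03 ± 0.43 SE, adjusted p = 0.588). *Cyp2b13* was too low to be tested, at 0.41 to 2.95 TPM in the knockouts and 0.04 to 0.13 TPM in the controls, without overlap.

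Floxed control 2 and knockout 3, which were low for most members, were often the highest of their group for female-biased genes. Over the 15 female-biased genes with a mean of at least 1 TPM, floxed control 2 was the highest control for 9, where it was the highest for 33.5% of all tested genes. Knockout 3 was the highest knockout for 9 of the 15, where it was the highest for 22.7% of all tested genes. Floxed control 3 was the lowest control for 8 of them, against 15.5% of all tested genes, but was the highest control for 0 of the 10 members. Floxed control 4, the highest control for 6 members, was the lowest control for 4 of the 15, against 63.0% of all tested genes. It was the highest control for 3 of the 15, against 7.34% of all tested genes.

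**Figure D4:**
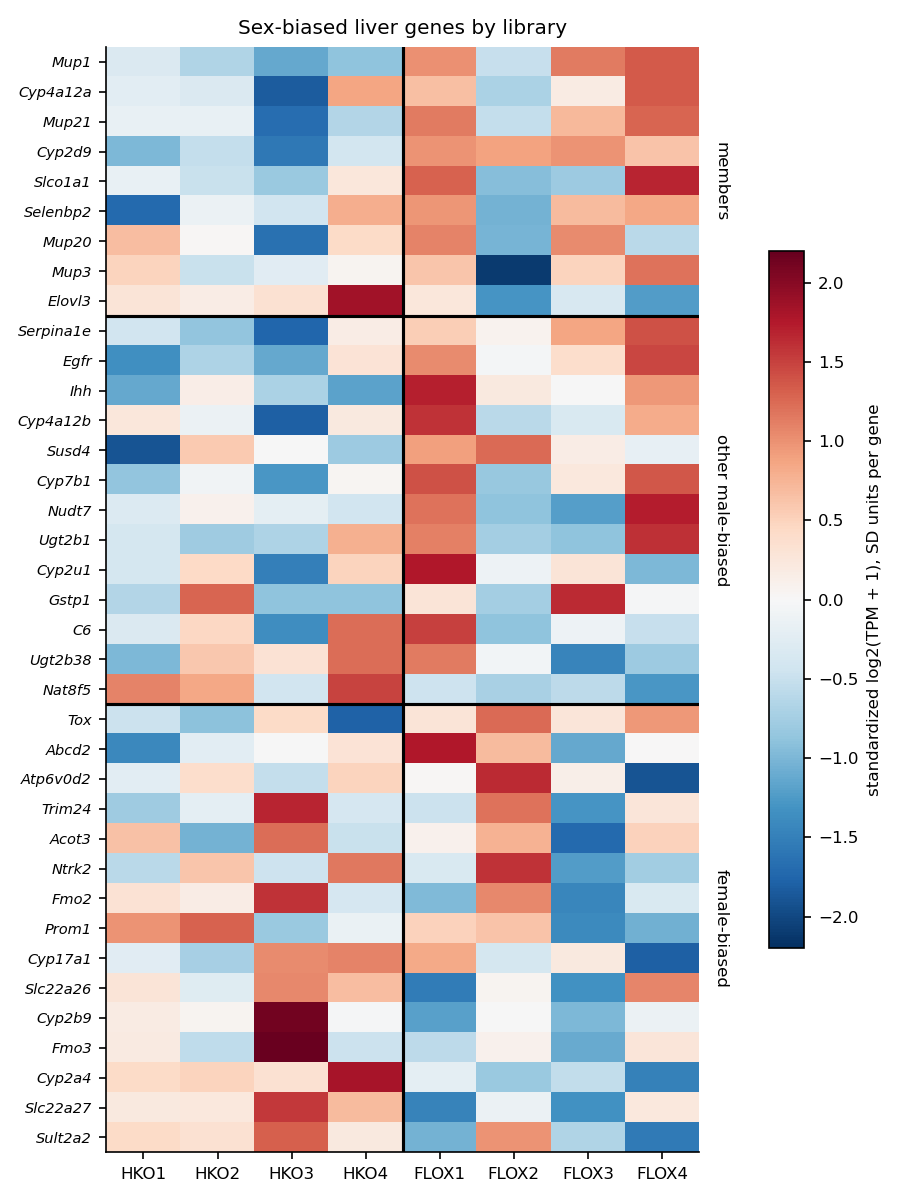
Standardized log2(TPM + 1) of the tested members, other male-biased genes and female-biased genes in each library (rows are genes, centred and divided by the SD over 8 libraries; knockouts, HKO, left of floxed controls, FLOX). Knockout 3 and floxed control 2 are blue in most member rows and red in many female-biased rows. The rows of *Cyp2d9* (lower in the knockouts), *Nat8f5* and *Cyp2a4* (both higher) divide the genotypes without exception.

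The genes of the growth hormone pathway upstream of the members were measured as well. Of 12 genes of receptor signalling, 11 were tested, 0 passed, 9 had a higher and 2 a lower mean in the knockouts (median log2 difference 0.08), with 7 to 9 higher over the other scalings. Of all 12710 tested genes 8211 had a higher mean, with a median log2 difference of 0.05. The receptor gene *Ghr* averaged 135 ± 12.8 TPM in the knockouts and 132 ± 12.5 TPM in the controls (SD, n = 4 each), with a log2 difference of 0.03 (95% interval -0.19 to 0.25). *Stat5b* stood at 13.15, 14.95, 19.04 and 20.37 TPM in knockouts 1 to 4, against 14.64, 16.99, 13.03 and 9.17 TPM in floxed controls 1 to 4 (0.32, 95% interval -0.11 to 0.74, adjusted p = 0.760 in limma). The kinase gene *Jak2* averaged 4.89 TPM in the knockouts and 4.66 TPM in the controls.

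*Cish*, the STAT5-induced feedback inhibitor whose start carries the paired motif shown above, stood at 13.5, 18.1, 14.8 and 9.7 TPM in knockouts 1 to 4, against 8.99, 7.64, 6.56 and 8.01 TPM in floxed controls 1 to 4. All 4 knockouts lay above all 4 controls, floxed control 2 included (log2 difference 0.75 ± 0.18 SE, adjusted p = 0.204 in limma, 2-sided exact permutation p = 0.0286). *Socs2*, another STAT5-induced inhibitor of the receptor, varied over a wide range in both groups, at 31.4, 23.6, 30.3 and 11.3 TPM in knockouts 1 to 4, against 15.0, 12.5, 4.79 and 33.5 TPM in floxed controls 1 to 4 (0.71, 95% interval -0.35 to 1.77, adjusted p = 0.804). Among transcription factors of sex-biased expression, 12 of 13 were tested, 0 passed, and 6 had a lower and 6 a higher mean (7 and 5 after median-of-ratios scaling). The repressor gene *Bcl6* averaged 3.34 TPM in the knockouts and 4.15 TPM in the controls, and *Hnf4a*, a hepatocyte factor that male-biased genes need in mice, 156 ± 20.5 TPM in the knockouts and 181 ± 17.2 TPM in the controls (SD, n = 4 each).

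Of 5 genes of the IGF axis listed as targets of growth hormone signalling without sex bias, 0 passed. No direction of that action on each gene is implied by the list. *Igf1*, the circulating growth factor gene, stood at 533, 392, 441 and 493 TPM in knockouts 1 to 4, against 574, 432, 482 and 650 TPM in floxed controls 1 to 4 (-0.19, 95% interval -0.49 to 0.11). *Igfbp4* did not overlap, at 645 to 714 TPM in the knockouts and 755 to 848 TPM in the controls (-0.23 ± 0.07 SE, adjusted p = 0.2999 in limma). *Igfbp1*, a binding protein gene that insulin represses, stood at 462, 528, 541 and 463 TPM in knockouts 1 to 4, against 41.8, 595, 57.8 and 61.3 TPM in floxed controls 1 to 4. The library in which *Igfbp1* was out of place, floxed control 2, is the library that was lowest among the controls for 9 members. The log2 difference of *Igfbp1* was 2.34 ± 0.67 (SE, adjusted p = 0.293 in limma) with all libraries. Without floxed control 2 it was 3.21 (adjusted p = 1.12e-05 in limma), but leaving out the library that was out of place favours separation by construction. That was the only 1 of the 8 fits leaving a library out in which *Igfbp1* passed, and its adjusted p ranged up to 0.549 in the others.

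**Figure D5:**
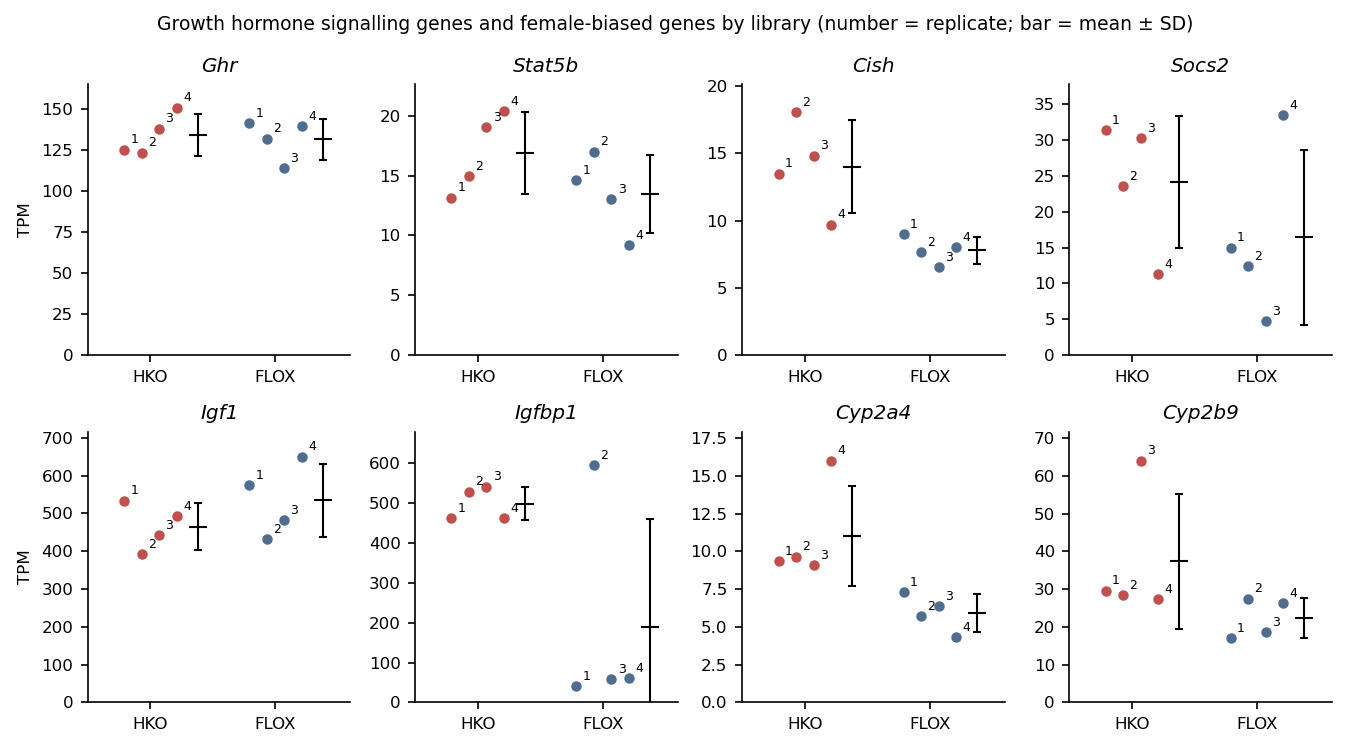
TPM of growth hormone signalling genes (*Ghr*, *Stat5b*, *Cish*, *Socs2*), *Igf1*, *Igfbp1* and female-biased *Cyp2a4* and *Cyp2b9* in each library, knockouts (HKO) left and floxed controls (FLOX) right; points are libraries numbered by replicate, bars mean ± SD (n = 4 per group, cut off at 0). The groups are apart for *Cish* and *Cyp2a4*, and floxed control 2 stands at 595 TPM of *Igfbp1* among the knockouts.

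The 5 genes outside the *Mup* family whose pattern over the 8 libraries was most like the mean of the 9 tested members, each standardized, were *Tspan33* (r = 0.95), *Etfb* (0.94), *C8b* (0.94), *Slc25a20* (0.93) and *Cyp7b1* (0.93). Genes with clone, predicted or identifier names were left out of this ranking. The r is Pearson's, over 8 libraries that include both genotypes, and is a description. *Cyp7b1*, an oxysterol hydroxylase gene, is itself male-biased and on the list of such genes. It stood at 22.7, 26.8, 20.8 and 27.4 TPM in knockouts 1 to 4, against 36.4, 22.9, 28.6 and 36.1 TPM in floxed controls 1 to 4 (-0.32 ± 0.16 SE, adjusted p = 0.678 in limma). Of the members themselves, *Cyp4a12a* (r = 0.90) lay closest to that mean and *Elovl3* (0.05) farthest from it. Each tested member is part of that mean, which raises its r by construction, so these r are not comparable with those of the 5 outside genes.

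Of 19 listed clock genes 18 were tested, and their part in the values of the members was not tested. *Arntl*, a core clock activator, was the 1 that passed, at 12.0 to 19.6 TPM in the knockouts and 3.18 to 6.52 TPM in the controls (1.41 ± 0.21 SE, adjusted p = 0.0490 in limma), and it passed in 1 of the 8 fits leaving out 1 library each (adjusted p from 0.0432 to 0.144). The groups did not overlap for 9 clock genes, against 4.74% of all tested genes, 4 lower and 5 higher in the knockouts, among them the output factor *Dbp*, at 1.68 to 3.27 TPM in the knockouts and 5.43 to 35.43 TPM in the controls.

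Markers of other cells were summed per library, and in these bulk samples fewer cells of a type and less RNA per cell cannot be told apart. In each of these lists 0 genes passed, and no listed marker was at 0 in any library. Of all 12710 tested genes, 8211 had a higher and 4499 a lower mean in the knockouts. The 10 endothelial markers, all with a lower mean in the knockouts (median log2 difference -0.30), summed to 70.2 to 95.5 TPM in the knockouts and 53.1 to 149 TPM in the controls. The 10 macrophage markers summed to 593 to 943 TPM in the knockouts and 473 to 937 TPM in the controls, and of 9 tested 4 had a lower mean, 6 or 7 under the other scalings. Among these, the scavenger receptor gene *Marco* did not overlap, at 9.81, 8.59, 11.98 and 8.11 TPM in knockouts 1 to 4, against 20.05, 16.71, 16.95 and 17.93 TPM in floxed controls 1 to 4 (-0.84 ± 0.13 SE, adjusted p = 0.0609 in limma, below that of every member). *Timd4*, too low to be tested, did not overlap either, at 0.3 to 0.37 TPM in the knockouts and 0.51 to 0.89 TPM in the controls. The 10 stellate cell markers, 8 with a higher mean in the knockouts (7 or 8 under the other scalings), summed to 359 to 461 TPM in the knockouts and 241 to 417 TPM in the controls. The 7 cholangiocyte markers, of which 6 were tested and had a higher mean (5 or 6 under the other scalings), summed to 196 to 665 TPM in the knockouts and 264 to 498 TPM in the controls. The 10 lymphocyte markers, of which 5 were tested and 4 had a higher mean, summed to 18.9 to 34.3 TPM in the knockouts and 13.8 to 36.1 TPM in the controls. The hepatocyte markers, 9 of the 10 listed being matched, summed to 60756 to 68563 TPM in the knockouts and 67672 to 80640 TPM in the controls, and 8 of 9 had a lower mean in the knockouts, 7 to 9 under the other scalings. Of the hepatocyte markers, the apolipoprotein gene *Apoa1* did not overlap, at 10018 to 11786 TPM in the knockouts and 12217 to 16468 TPM in the controls (-0.41 ± 0.10 SE, adjusted p = 0.204 in limma). The groups overlapped for each of these sums, and the part of these cells in the values of the members was not tested.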

How the data were processed

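Total RNA of 8 liver samples was sequenced from libraries made with a stranded kit, per the labels' protocols. The authors deposited 1 table of TPM values, rounded to 2 decimals, for 55416 mouse gene identifiers. Per the submitters' processing notes, the tool was RSEM 1.3.3, and the build listed is GRCh38.p13, which is human although the identifiers are of mouse genes. The sources used here do not give the aligner, annotation or strand setting. RSEM splits reads that fit several genes by estimation, which bears on the *Mup* and *Cyp4a12* copies. TPM keeps no depth, so no count test was run.

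Samples were grouped by their titles. Symbols came from a table that matched 52083 identifiers. The scale was log2(TPM + 1), the pseudocount being 1. The 12710 genes that reached 1 TPM in 4 or more libraries were fitted in limma 3.58.1 under R 4.3.3 (trended eBayes, no covariate) at an adjusted p of 0.05. For single genes, a 2-sided exact permutation test went over all 70 assignments. The fit was tested on simulated data. Members, lists and tests were chosen with earlier results of these data known. Genes were named by a rule: all members, *Smpd3*, up to 4 genes of smallest p in each list with any that passed or did not overlap, other *Mup* genes with a mean of at least 1 TPM, and 5 genes by likeness. These 5 were the tested genes outside the members and the *Mup* genes with the pattern most like the members. Clone, predicted and identifier names were left out. Other genes of the lists (*Ghr*, *Stat5b*, *Jak2*, *Socs2*, *Igf1*, *Bcl6*, *Hnf4a*, *Alb* and the X- and Y-linked genes among them) were named for their role, after their values were seen. Alternatives were other pseudocounts (0.1 and 5), dropping the filter, requiring a mean of 5 TPM, 3 rescalings, quantile normalization, robust variance, library weights, a replicate block, and leaving out each library.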

Additional observations from a re-analysis of the deposited data

Results flagged for a closer look

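Of 46 groups of 4 libraries, 4 had a library far from the other 3, with a gap to the nearest that took up more of the range than Dixon's 95% critical value. Chance flags about 1 group in 20. *Elovl3* in knockout 4 was 23.22 TPM, against 16.4 to 17.0 TPM in the other knockouts. *Cyp2a4* in knockout 4 was 16.02 TPM, against 9.09 to 9.66 TPM in the others. *Cyp2b9* in knockout 3 was 64.07 TPM, against 27.4 to 29.6 TPM in the others. *Igfbp1* in floxed control 2 was 594.59 TPM, against 41.8 to 61.3 TPM in the other controls.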

How the results depend on the processing

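No count could be recovered from TPM, so what depth limits is unknown. The number of members past the threshold was 0 of 9, and 1 after rescaling without mitochondrially encoded and the 20 most abundant genes, after quantile normalization and with robust variance (*Cyp2d9* each time), and 0 to 1 when single libraries were left out. The number of all genes past it was 13, and was 8 and 6 with pseudocounts of 0.1 and 5, 0 without a filter, 20 after that rescaling, 20 with library weights, and 0 to 16 when single libraries were left out. Members without overlap were 1, where 4.74% of all tested genes had no overlap, and 1 to 4 when single libraries were left out. The 4 were found without floxed control 2, where 8.39% of all tested genes had no overlap. That share was not counted when other libraries were left out. *Mup3* turned to 0.0075 and *Mup20* to 0.039 after quantile normalization, and they ranged from -0.31 to 0.11 and from -0.15 to 0.059 when single libraries were left out. The other 7 tested members kept their direction in all 19 alternatives. The median difference of the members stayed negative in all 19, and the difference in summed *Mup* TPM in the 10 tried for it. *Smpd3* ranged from -2.06 to -1.76 when single libraries were left out and kept its call in 3 of these 8 fits. With the replicate number as a block, 0 genes passed and *Smpd3* had -1.89 with an adjusted p of 0.0818 in limma. Same-numbered libraries did not deviate together (r from -0.20 to 0.03 for 4 pairs over 12710 genes), so the numbers were not read as pairs.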
